A study of Drosophila melanogaster with 16 samples.

Results

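Messenger RNA of ganglion mother cells (GMCs) was compared with that of neuroblasts (NBs) of the Drosophila larval brain after 3 h in culture. The libraries were chosen by the cell type and the culture time in their names, which gave 2 GMC libraries and 3 NB libraries out of 16 in the series. Both groups came from flies of 1 genotype that the labels call wild type. In these flies ase-GAL4 drove UAS-stinger::GFP, a nuclear green fluorescent protein, and UAS-dcr2, and they were raised at 25 °C to the wandering stage of the third instar. Type I NBs were isolated from the brains by sorting and kept in culture for 3 h while they divided, and NBs and their new GMCs were then parted in another sort. Both groups therefore share the driver, the UAS-dcr2 transgene and the time outside the brain, and the cells are those that ase-GAL4 marks. The level of Dcr-2 transcripts, native and transgenic together, was not shared and was higher in GMCs. The labels do not say whether replicates were separate cultures, so p-values measure only how these libraries vary, which may be technical. The other 11 libraries, of NBs and GMCs of 1.5 and 5 h, enter through the shared estimate of spread and where ages are compared.

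A type I NB divides asymmetrically, renewing itself and budding off a smaller GMC, which usually divides a single time to give neurons or glia. At division the adaptor Miranda carries the homeodomain factor Prospero into the GMC, where Prospero represses stem cell genes, and the Notch inhibitor Numb is inherited as well. The NB keeps Notch signalling active, and with it bHLH repressors of the Hes family such as Deadpan that maintain self-renewal. NBs also pass through a series of temporal transcription factors that give their daughters different identities over time.

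The 5 libraries held between 6899670 and 15114163 counts assigned to genes. NB replicate 1 stood apart from the other libraries of 3 h. Reads in no gene made up 17.7% of its reads against 11.8% to 13.6% in the other 4, and reads without a unique alignment 21.7% against 32.0% to 33.4%. On the second principal component of these libraries, which held 23.5% of the variance, its score was 47.0, while NB replicates 2 and 3 were at -37.0 and -30.6 and the GMC libraries at 11.4 and 9.18. The first component, with 57.4% of the variance, placed the NB libraries at -61.4, -22.5 and -28.6 and the GMC libraries at 64.7 and 47.9. A single non-coding RNA, CR43283, took 6.82%, 4.88% and 4.20% of the gene counts in NBs and 27.5% and 21.8% in GMCs.

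The labels were checked against defining genes. The GMC genes pros, nerfin-1, tap and dap were each higher in both GMC libraries than in any NB library. Of the NB genes, dpn, klu, insc and mira were lower in both GMC libraries than in any NB library and ase and wor were higher there. The groups were apart in this way, in either direction, for 50.1% of all tested genes. For a single gene it is therefore a weak check of the labels. The glial gene repo lay between 1.51 and 2.32 CPM in all 5 libraries, where CPM are counts relative to the scaled library size. In bulk libraries fewer cells of a type and less RNA per cell cannot be told apart.

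Of 10913 genes tested, 2255 (20.7%) passed edgeR's quasi-likelihood test at a Benjamini-Hochberg adjusted p under 0.05 and are spoken of as higher or lower. Of these genes 1110 (10.2%) were higher in GMCs and 1145 (10.5%) were lower, and the median log2 fold change of all tested genes was 0.07. Counts of called members in the gene lists are to be read against these shares. The CPM values of the groups did not overlap for 5468 genes (50.1%), with GMCs above for 2953 (27.1%) and below for 2515 (23.0%). Where a lack of overlap is reported for a gene, it is to be read against these shares and adds little to the test. When CR43283 was left out of the library scaling, the median of all genes shifted by -0.11 to -0.04 and the split became 932 higher and 1449 lower. It was 1018 and 1378 with median-ratio scaling and 1001 and 1442 with the gene-length trend removed. Without GMC replicate 1 or 2, which leaves 1 GMC library assumed to vary like the other groups, 1095 and 1199 genes passed, of which 1074 and 1146 were among the 2255. DESeq2 called 2851 of 9888 genes (28.8%). Without NB replicate 1, 1793 of the 2255 calls remained. The fit of the 3 h libraries alone called 1651 genes, of which 1533 were among the 2255. The fit without the libraries of 5 h called 2903.

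**Figure D1:**
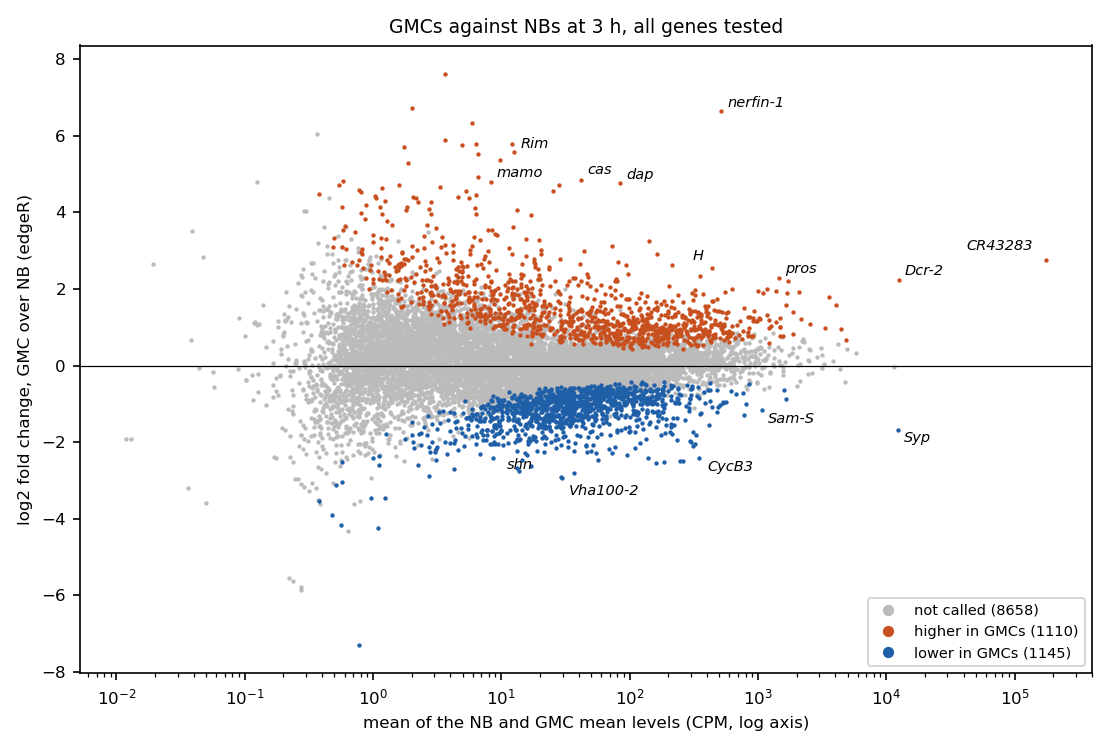
Each point is 1 of the 10913 genes tested at 3 h. The horizontal axis is the mean of the NB and GMC mean levels in CPM on a log axis and the vertical axis the edgeR log2 ratio of GMC to NB levels, and shows 1110 genes called higher in orange and 1145 called lower in blue. Among named genes nerfin-1 (6.64) lies farther from 0 than Vha100-2 (-2.94).

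The 15 largest increases in GMCs, among called genes with at least 20 CPM in the higher group and no overlap, included factors of neuronal fate, cell cycle exit and synapses. Transcripts of nerfin-1 (FBgn0028999, 3L 909112 to 912319 in release 6 coordinates), a zinc finger factor that keeps neurons from reverting to stem cells, stood at 8.13, 14.7 and 7.75 CPM in NBs and 978 and 1071 CPM in GMCs. Both GMC libraries lay far above all 3 NB libraries (log2 fold change 6.64 ± 0.46 SE, edgeR adjusted p = 2.23e-07). The gene dap (FBgn0010316, 2R 9712321 to 9716256), which encodes the inhibitor of Cyclin E and Cdk2, was at 6.32, 5.22 and 6.39 CPM in NBs and 146 and 179 CPM in GMCs. Its log2 fold change of 4.76 ± 0.21 SE had the smallest p of the genes tested (edgeR adjusted p = 1.12e-09). Transcripts of tara (FBgn0040071, 3R 16225651 to 16260329), a SERTAD family regulator, were at 27.3, 21.6 and 30.6 CPM in NBs and 231 and 278 CPM in GMCs (edgeR adjusted p = 8.09e-07). The BTB and zinc finger factor mamo (FBgn0267033, X 13846116 to 13990527) was at 2.82, 1.09 and 2.44 CPM in NBs and 37.5 and 71.0 CPM in GMCs (edgeR adjusted p = 6.90e-06), and although its GMC libraries differed from each other, both were far above the NBs. The RNA-binding proteins Rbp6, of the Musashi family, and bru3, of the CELF family, had log2 fold changes of 3.28 and 3.94 (edgeR adjusted p = 4.55e-05 and 6.16e-05). The others were the active zone protein Rim, the vesicle protein Syt4, the sodium pump subunit nrv3, the scaffold dysc, the calcineurin subunit CanA-14F, the temporal factor cas, the zinc finger gene CG9650, CG34362 and the non-coding RNA CR45919, with log2 fold changes between 3.08 and 5.78.

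The 15 largest decreases by the same rule were smaller in size and included genes of the cell cycle and of metabolism. The proton pump subunit Vha100-2 (FBgn0028670, 3R 18390323 to 18399169) was at 43.6, 62.2 and 52.7 CPM in NBs and 5.27 and 8.14 CPM in GMCs. Its NB values stayed close together and far above both GMC values (log2 fold change -2.94 ± 0.28 SE, edgeR adjusted p = 5.12e-06). Transcripts of apt (FBgn0015903, 2R 23564891 to 23599526), a transcription factor known as a feedback inhibitor of STAT signalling in border cells, were at 397, 412 and 459 CPM in NBs and 75.9 and 73.6 CPM in GMCs (edgeR adjusted p = 2.00e-06). The glycogen-targeting subunit of protein phosphatase 1, Gbs-70E (FBgn0036428, 3L 14540937 to 14550975), was at 349, 289 and 312 CPM in NBs and 58.4 and 53.2 CPM in GMCs (edgeR adjusted p = 3.18e-06). Both showed little spread within a group and a wide gap between groups. The mitochondrial dicarboxylate carrier Dic1 differed by -2.68 and the tyrosine phosphatase Pez by -2.75 in log2 terms (edgeR adjusted p = 3.10e-05 and 2.22e-05). The 15 also held CycB3, stg, Ald and REPTOR, described with their pathways, and 5 genes known by number, CG7730, CG2990, CG8778, CG12911 and CG5149. The last of the 15 to be named, the translation inhibitor Thor, differed by -2.46 in log2 terms (edgeR adjusted p = 0.0185), and its call was lost without NB replicate 1 (edgeR adjusted p = 0.0555), GMC replicate 1 (adjusted p = 0.170) or GMC replicate 2 (adjusted p = 0.0777), and with the replicate number as a block (adjusted p = 0.102).

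Factors of GMC fate and neuronal differentiation were higher in GMCs more often than lower. In this list 10 of 20 tested members were called higher, 2 called lower and 8 did not pass, with a median log2 fold change of 1.06 against 0.07 for all genes. With the gene-length trend removed the list gave 8 higher and 4 lower, with a median of 0.60. The homeodomain factor pros (FBgn0004595, 3R 11328480 to 11407627) was at 459.9, 493 and 533 CPM in NBs and 2110.0 and 2759 CPM in GMCs. The groups were clearly apart (log2 fold change 2.30 ± 0.28 SE, edgeR adjusted p = 4.00e-05), and the log2 fold change was 1.36 with the gene-length trend removed. The bHLH factor tap was at 68.7, 56.2 and 53.9 CPM in NBs and 355 and 379.6 CPM in GMCs (edgeR adjusted p = 9.42e-08). The BTB factor lola, which helps neurons hold their differentiated state, was at 2173, 1963 and 1935 CPM in NBs and 6028 and 6027 CPM in GMCs (edgeR adjusted p = 1.62e-05). Its log2 fold change of 1.57 became 0.60 with the gene-length trend removed, where the call was lost (edgeR adjusted p = 0.124). The zinc finger gene jim, which the naming rule did not take and which was picked after its values were seen, was at 21.2, 54.0 and 38.4 CPM in NBs and 237 and 336 CPM in GMCs (edgeR adjusted p = 0.00107). Its NB values differed widely but stayed below both GMC values. The BTB factor fru was 1 of the 2 lower members, at 139.6, 156 and 156 CPM in NBs and 70.03 and 56.3 CPM in GMCs (edgeR adjusted p = 4.08e-04), with a log2 fold change of -1.26 that became -2.08 with the length trend removed. The transcriptional cofactor nab, also picked afterwards, was the other, at 263, 206 and 284 CPM in NBs and 116 and 102 CPM in GMCs (edgeR adjusted p = 0.00142). The translational repressor brat and the Notch inhibitor numb, whose proteins the GMC inherits, had log2 fold changes of -0.04 and 0.13 (edgeR adjusted p = 0.939 and 0.754).

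The list of neuroblast factors went in both directions. It also holds cas, a temporal factor at 2.71, 3.74 and 2.01 CPM in NBs, so not all its members define these NBs. In it 8 of 17 tested members were called higher, 5 called lower and 4 did not pass (median log2 fold change 0.66). The gene nub was removed by the filter on low counts. Of the NB genes used to check the labels, dpn, klu and insc were called lower, ase and wor higher, and mira was not called. The Hes family repressor dpn (FBgn0010109, 2R 8228971 to 8232330), which maintains self-renewal, was at 184, 93.6 and 112 CPM in NBs and 42.4 and 38.7 CPM in GMCs (edgeR adjusted p = 6.64e-04). Of its exon length 59.3% overlaps another annotated gene, and these libraries, made by tagmentation of double-stranded cDNA, do not mark strand, so its counts are uncertain. The Hes family gene E(spl)mgamma-HLH (FBgn0002735, 3R 25999851 to 26000761) was at 119, 42.1 and 64.3 CPM in NBs and 21.1 and 19.7 CPM in GMCs (edgeR adjusted p = 0.00193). For both genes the NB libraries spread widely, with replicate 1 highest, and lay above both GMC libraries. The proneural factor ase (FBgn0000137, X 460747 to 463176), the gene whose regulatory sequence names the driver of the sorting marker, was higher in GMCs, at 374, 266 and 300.4 CPM in NBs and 773 and 855 CPM in GMCs (edgeR adjusted p = 1.31e-04). Another NB factor, wor of the Snail family, was likewise higher, at 227, 185 and 230.1 CPM in NBs and 338 and 384 CPM in GMCs (edgeR adjusted p = 0.00741), but its call was lost without GMC replicate 2 (edgeR adjusted p = 0.100). The polarity adaptor insc was lower (log2 fold change -1.13, edgeR adjusted p = 0.00598), a call lost without GMC replicate 1 (adjusted p = 0.0526) or 2 (adjusted p = 0.0693). The zinc finger factor klu, a self-renewal gene that the naming rule did not take, was at 157, 152 and 154 CPM in NBs and 87.7 and 83.7 CPM in GMCs (edgeR adjusted p = 0.0143). Its call too was lost without GMC replicate 1 (adjusted p = 0.0981) or 2 (adjusted p = 0.110). Over these factors the number higher was 4 without NB replicate 2, NB replicate 3 or GMC replicate 1 and 2 without GMC replicate 2, while the number lower was 3 without GMC replicate 1 or GMC replicate 2. Their median was 0.05 without GMC replicate 1 and 0.37 with the length trend removed. The calls were 5 higher and 6 lower with CR43283 left out of the scaling and 6 higher and 6 lower with the length trend removed.

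Other bHLH factors were more often higher than lower, and in their list 6 of 28 tested members were called higher, 1 called lower and 21 did not pass, while 7 more were removed by the filter. The AP-4 homologue crp was at 436, 485 and 498 CPM in NBs and 1990.1 and 1806 CPM in GMCs (edgeR adjusted p = 2.16e-05). The partner of the proneural proteins, da, was at 59.96, 60.1 and 59.7 CPM in NBs and 138 and 135 CPM in GMCs (edgeR adjusted p = 4.25e-04). Both showed very little spread within a group. The bHLH factor Oli was at 21.2, 11.4 and 15.6 CPM in NBs and 63.4 and 95.1 CPM in GMCs (edgeR adjusted p = 4.14e-05), with more spread and no overlap.

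Genes of the Notch pathway that passed the test were higher in GMCs. Of 23 tested components 7 were higher, 0 were lower and 16 were not called, with a median log2 fold change of 0.33. With the gene-length trend removed 6 were higher and 3 lower, and 1 was lower with median-ratio scaling, with CR43283 left out of the scaling or without NB replicate 1. The median was 0.21 with CR43283 left out. The ligand Dl was at 178, 197 and 183 CPM in NBs and 507 and 478 CPM in GMCs (edgeR adjusted p = 0.00195). The protease kuz, which cleaves Notch at the membrane, was at 164, 163 and 157 CPM in NBs and 452 and 405 CPM in GMCs (edgeR adjusted p = 0.00111). For both the groups were apart with little spread. The receptor N was at 251, 345 and 345 CPM in NBs and 518 and 462 CPM in GMCs, where no values overlap but the test did not pass (log2 fold change 0.64, edgeR adjusted p = 0.0804). The DNA-binding protein of the pathway, Su(H), was at 31.4, 39.0 and 43.9 CPM in NBs and 95.6 and 112 CPM in GMCs (edgeR adjusted p = 5.55e-04). Its antagonist Hairless, H (FBgn0001169, 3R 20621938 to 20628915), which recruits corepressors to Su(H), was at 120.4, 125 and 136 CPM in NBs and 706 and 781 CPM in GMCs. This was the largest log2 fold change among the 23, 2.55 ± 0.23 SE (edgeR adjusted p = 3.18e-06). The corepressor gro, which Hairless and the Hes proteins bind, was at 202, 194 and 219 CPM in NBs and 525 and 486 CPM in GMCs (edgeR adjusted p = 9.27e-04). The ubiquitin ligase dx, which acts on Notch, was at 19.9, 28.1 and 33.8 CPM in NBs and 70.8 and 66.4 CPM in GMCs (edgeR adjusted p = 5.12e-04). In contrast, neur, the ubiquitin ligase that activates Delta, was at 528, 458 and 459 CPM in NBs and 358 and 288 CPM in GMCs, below the NBs in both GMC libraries without passing the test (edgeR adjusted p = 0.0655), and 38.8% of its exon length overlaps another gene. The coactivator mam was the seventh called component and was outside the naming rule (log2 fold change 0.94, edgeR adjusted p = 0.00714). Its call was lost without GMC replicate 1 (adjusted p = 0.0670) and with the length trend removed (adjusted p = 0.116, log2 fold change 0.40).

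Notch targets of the E(spl) complex differed among themselves. Of 15 members of the E(spl) and Bearded families in the files 8 were tested, with 2 higher, 1 lower and 5 not called. Where E(spl)mgamma-HLH was lower, E(spl)m8-HLH (FBgn0000591, 3R 26040240 to 26041008) was higher in GMCs, at 41.4, 11.1 and 13.2 CPM in NBs and 148 and 135 CPM in GMCs. Its NB replicate 1 value was well above the other NB values and still below both GMC values (log2 fold change 2.71 ± 0.41 SE, edgeR adjusted p = 2.52e-04). The third called member, E(spl)mbeta-HLH, was at 19.6, 11.1 and 12.5 CPM in NBs and 30.3 and 34.2 CPM in GMCs (edgeR adjusted p = 0.00620) and lost its call without GMC replicate 2 (adjusted p = 0.0709). The related Notch target Hey, picked after its values were seen, was at 0, 0.312 and 0.287 CPM in NBs and 9.41 and 15.7 CPM in GMCs (edgeR adjusted p = 1.70e-04). Its counts were close to 0 in NBs and clear in both GMC libraries.

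**Figure D2:**
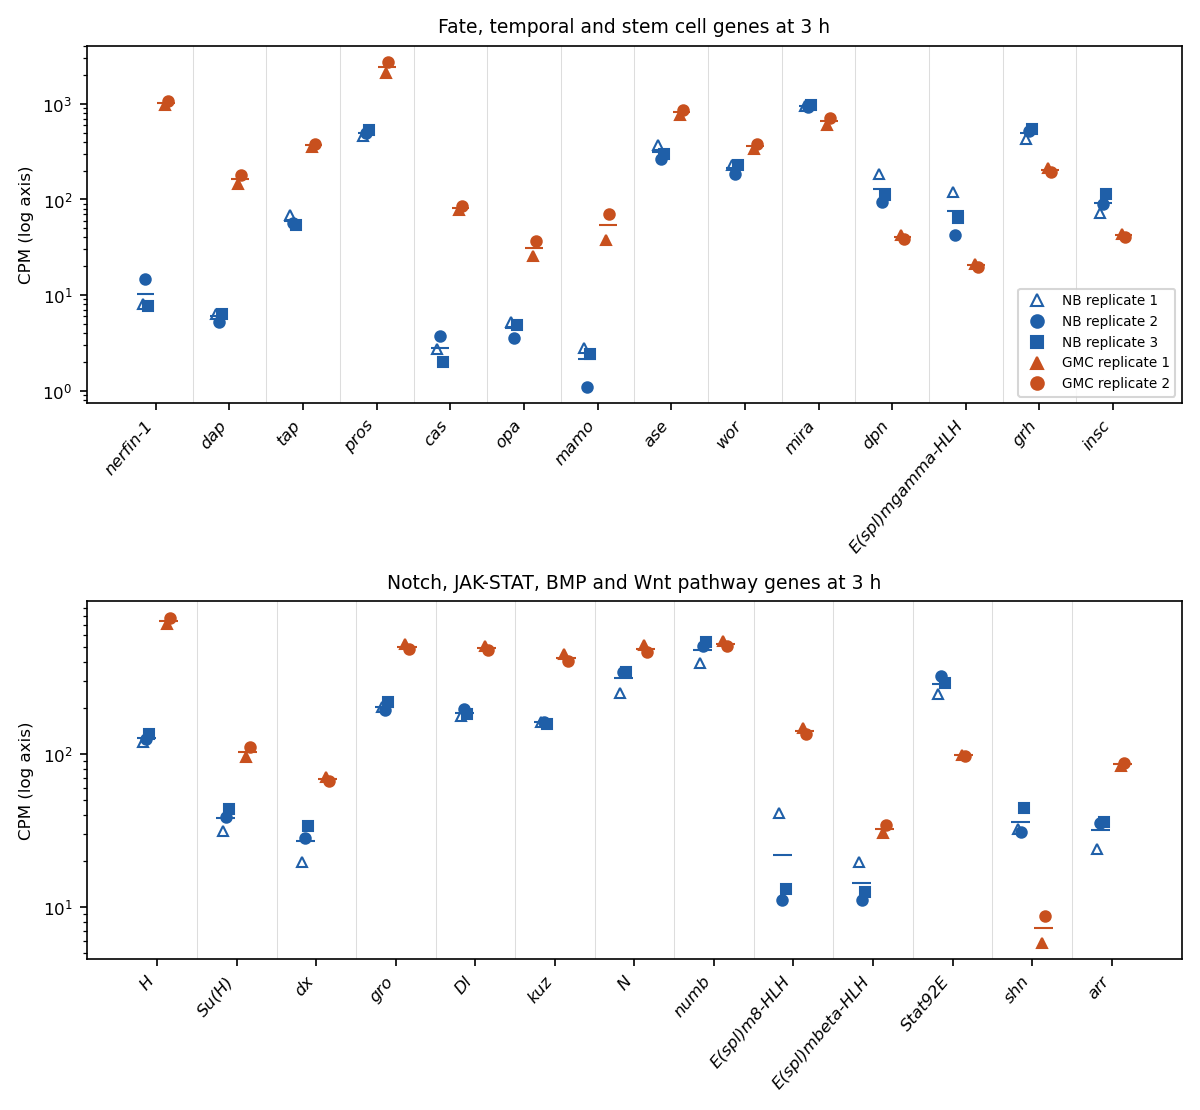
Levels in CPM on a log axis of 14 fate, temporal and stem cell genes (top) and of 13 signalling genes (bottom) in the 3 NB libraries (blue) and the 2 GMC libraries (orange) of 3 h, with a bar at each group mean. The GMC points of nerfin-1, dap, cas and mamo lie farthest above the NB points, those of dpn, grh and Stat92E lie below them, and those of numb lie among them.

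The machinery of asymmetric division held both directions, and in this list 6 of 24 tested members were called higher, 4 called lower and 14 did not pass. The median log2 fold change was 0.09, and -0.12 to 0.15 over the alternatives. The balance turned to 4 higher and 5 lower with CR43283 left out of the scaling and likewise with median-ratio scaling, and to 3 higher and 9 lower with the length trend removed. The Par complex member par-6 was at 271, 331 and 335 CPM in NBs and 119 and 99.1 CPM in GMCs (edgeR adjusted p = 6.32e-05). The kinase aurA, which phosphorylates polarity proteins at mitosis, was at 74.4, 51.2 and 61.8 CPM in NBs and 29.6 and 29.5 CPM in GMCs (edgeR adjusted p = 0.00233). Both were lower in GMCs with no overlap. The G protein subunit Galphai, which helps to orient the spindle, was higher, at 354, 252 and 259 CPM in NBs and 604 and 631 CPM in GMCs (edgeR adjusted p = 3.68e-04). Its regulator loco was at 33.2, 36.3 and 46.0 CPM in NBs and 69.3 and 79.7 CPM in GMCs (edgeR adjusted p = 0.00550) and lost its call without GMC replicate 2 (adjusted p = 0.0746) and with the length trend removed (adjusted p = 0.0562, log2 fold change 0.50 against 0.95). The adaptor mira was at 949.9, 936 and 979 CPM in NBs and 605 and 715 CPM in GMCs (edgeR adjusted p = 0.0515), lower in both GMC libraries without passing the test. Among these genes the number higher was 3 without NB replicate 1 or GMC replicate 1 and 2 without GMC replicate 2, while the number lower was 2 without GMC replicate 1 or GMC replicate 2.

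Temporal identity factors went in both directions. Of 30 tested 12 were higher and 5 lower in GMCs, with a median log2 fold change of 0.50, or 0.12 with the length trend removed, and the number lower was 3 without GMC replicate 2. The zinc finger factor cas (FBgn0004878, 3R 5712975 to 5716805) was at 2.71, 3.74 and 2.01 CPM in NBs and 77.0 and 85.4 CPM in GMCs. All NB values were low and the GMC values close together (log2 fold change 4.85 ± 0.43 SE, edgeR adjusted p = 3.18e-06). The zinc finger factor opa was at 5.19, 3.58 and 4.88 CPM in NBs and 25.8 and 37.0 CPM in GMCs (edgeR adjusted p = 6.90e-06). The forkhead gene slp1 was at 5.76, 3.12 and 3.303 CPM in NBs and 16.9 and 19.6 CPM in GMCs (edgeR adjusted p = 0.00124). Its neighbour slp2 was at 21.7, 20.9 and 21.3 CPM in NBs and 71.2 and 72.2 CPM in GMCs (edgeR adjusted p = 4.96e-05). All 3 were higher in GMCs with no overlap. The BTB factor chinmo, which marks early-born neurons, was at 384, 319.7 and 250.1 CPM in NBs and 941 and 739 CPM in GMCs (edgeR adjusted p = 0.00274), and its log2 fold change of 1.40 became 0.67 with the length trend removed, where the call was lost (adjusted p = 0.130). The RNA-binding protein Syp (FBgn0038826, 3R 20756729 to 20810726), which represses chinmo late in larval life, was outside the naming rule and picked after its values were seen, at 18156, 19356 and 19027 CPM in NBs and 6745 and 5067 CPM in GMCs. Both GMC values were far below the NB values (log2 fold change -1.67 ± 0.36 SE, edgeR adjusted p = 0.00342), though the call was lost without GMC replicate 2 (adjusted p = 0.0616). Its counterpart Imp, also outside the rule, was at 47.8, 23.8 and 51.5 CPM in NBs and 25.6 and 30.3 CPM in GMCs (edgeR adjusted p = 0.459) and not called. The late NB factor grh was lower, at 428, 515 and 546 CPM in NBs and 216 and 194 CPM in GMCs (edgeR adjusted p = 0.00176), with 19.1% of its exon length shared with another gene. The nuclear factor dan was at 68.2, 42.4 and 64.6 CPM in NBs and 20.9 and 25.4 CPM in GMCs (edgeR adjusted p = 5.50e-04). Its paralogue danr was at 26.3, 22.8 and 32.8 CPM in NBs and 10.7 and 9.45 CPM in GMCs (edgeR adjusted p = 3.03e-04). Both were lower in GMCs.

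Homeodomain factors that specify neuron subtypes gave 20 higher and 0 lower of 53 tested, with a median log2 fold change of 0.89. There the number higher was 11 without GMC replicate 2, and 1 was lower with median-ratio scaling or with CR43283 left out of the scaling. The paired family factor gsb-n was at 4.18, 5.45 and 6.03 CPM in NBs and 24.9 and 37.6 CPM in GMCs (edgeR adjusted p = 5.90e-06). The homeobox gene oc, which patterns the head, was at 132, 142 and 152 CPM in NBs and 505 and 511 CPM in GMCs (edgeR adjusted p = 8.53e-05). The Iroquois factor caup was at 1.47, 1.40 and 1.65 CPM in NBs and 9.60 and 8.91 CPM in GMCs (edgeR adjusted p = 1.76e-04). All 3 were higher in GMCs with no overlap. The NK family gene scro was at 9.71, 8.18 and 10.3 CPM in NBs and 28.2 and 57.6 CPM in GMCs (edgeR adjusted p = 6.63e-04), with GMC replicate 2 well above GMC replicate 1. Hox genes and their cofactors gave 1 higher (8.33%) and 0 lower of 12, against 10.2% and 10.5% of all genes. The ecdysone response list gave 2 higher (10.5%) and 1 lower (5.26%) of 19, so its share higher was near that of all genes. With the length trend removed it gave 1 higher and 3 lower. Its kinase gene Eip63E was at 112, 115 and 98.6 CPM in NBs and 202 and 208 CPM in GMCs (edgeR adjusted p = 6.27e-04), and the call was lost with the length trend removed (adjusted p = 0.0587, log2 fold change 0.50 against 0.92).

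Markers of differentiated neurons were mostly higher in GMCs at 3 h. Of 30 neuron markers 19 were higher and 1 lower (median log2 fold change 1.38), and the number higher was 9 without GMC replicate 2. With the gene-length trend removed 13 of these markers were higher and 1 lower, with a median of 0.97. The RNA-binding protein elav (FBgn0260400, X 509235 to 523226), found in all neurons, was at 209, 266 and 279 CPM in NBs and 923 and 1073 CPM in GMCs (edgeR adjusted p = 4.00e-05), with 34.2% of its exon length shared with another gene. The adhesion protein Nrt was at 195, 238 and 261 CPM in NBs and 930.4 and 837 CPM in GMCs (edgeR adjusted p = 3.10e-05), with 21.8% shared. Both were higher in each GMC library than in any NB library. The cell adhesion protein Nrg was at 214, 211 and 233 CPM in NBs and 768 and 706 CPM in GMCs (edgeR adjusted p = 1.48e-04), and its log2 fold change of 1.75 was 1.16 with the length trend removed. The active zone protein brp was at 2.71, 7.17 and 4.24 CPM in NBs and 31.1 and 40.3 CPM in GMCs (edgeR adjusted p = 9.21e-04). The synaptic vesicle protein Syn was at 0.113, 0.545 and 0.144 CPM in NBs and 8.28 and 17.7 CPM in GMCs (edgeR adjusted p = 5.09e-04). For both, GMC replicate 2 exceeded GMC replicate 1 and the NB values were low. The vesicle chaperone Csp was the 1 lower marker, at 617, 592 and 585 CPM in NBs and 276 and 292 CPM in GMCs (edgeR adjusted p = 9.67e-05).

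Synapse genes gave 14 higher and 2 lower of 34 tested (median log2 fold change 0.58), and the number higher was 5 without GMC replicate 2, while the number lower was 4 without NB replicate 1. With the length trend removed the calls were 11 higher and 6 lower with a median of 0.22, and the median was 0.97 without GMC replicate 1. The lower members were Csp and the NSF gene comt, which acts in membrane fusion, at 88.0, 86.7 and 84.8 CPM in NBs and 24.1 and 23.6 CPM in GMCs (edgeR adjusted p = 2.65e-05). The calcium sensor Syt4 was at 0.790, 3.12 and 2.08 CPM in NBs and 29.9 and 67.5 CPM in GMCs (edgeR adjusted p = 0.00122). Its relative Syt7 was at 5.19, 6.54 and 7.25 CPM in NBs and 30.7 and 34.8 CPM in GMCs (edgeR adjusted p = 3.42e-04). Both were higher in GMCs with no overlap. The scaffold Rim was at 0.678, 0.467 and 0.431 CPM in NBs and 13.4 and 35.8 CPM in GMCs (edgeR adjusted p = 5.55e-04), with all NB values under 1 CPM. Of 36 ion channels and pumps 11 were higher and 1 lower, among the higher the potassium channel Sh at 4.86, 5.14 and 3.45 CPM in NBs and 27.5 and 45.2 CPM in GMCs (edgeR adjusted p = 3.69e-04). For these channels the number higher was 6 without NB replicate 3 and 4 without GMC replicate 2, and the length trend removed left 8 higher and 3 lower. Nicotinic acetylcholine receptor subunits gave 6 higher and 0 lower of 9 tested (median log2 fold change 2.70). Subunits near 0 in NBs could pass the filter on low counts only through GMCs or another age. The direction of this count and median is therefore partly set by the filter. The subunit nAChRalpha1 was at 0.565, 0.467 and 0.503 CPM in NBs and 6.78 and 14.4 CPM in GMCs (edgeR adjusted p = 2.86e-04). Transmitter genes gave 4 higher and 0 lower of 21, and the number higher was 2 without NB replicate 1, 1 without NB replicate 3 and 0 without GMC replicate 2.

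Surface molecules for axon guidance and cell recognition that passed the test were mostly higher in GMCs. Of 40 axon guidance genes 16 were higher and 1 lower (median log2 fold change 0.80), and the number higher was 8 without GMC replicate 1 and 7 without GMC replicate 2. With the length trend removed 10 higher and 2 lower were called at a median of 0.37. The cell surface receptor Dscam1 was at 56.0, 107 and 89.3 CPM in NBs and 265 and 217 CPM in GMCs (edgeR adjusted p = 7.69e-04), and its log2 fold change of 1.52 was 0.63 with the length trend removed. The guidance ligand NetB was at 9.71, 9.50 and 8.62 CPM in NBs and 30.9 and 47.1 CPM in GMCs (edgeR adjusted p = 9.04e-04). The receptor robo3 was at 0.113, 0.0779 and 0.144 CPM in NBs and 5.46 and 8.91 CPM in GMCs (edgeR adjusted p = 0.00117). The semaphorin Sema-2b was at 0.226, 0.857 and 0.503 CPM in NBs and 11.7 and 12.6 CPM in GMCs (edgeR adjusted p = 0.00235). These 3 were higher in both GMC libraries, and for robo3 and Sema-2b all NB values were under 1 CPM. The adaptor dock was the 1 lower guidance gene, at 123, 171 and 173 CPM in NBs and 56.7 and 73.4 CPM in GMCs (edgeR adjusted p = 5.25e-04). Adhesion molecules gave 13 higher and 0 lower of 35 (median log2 fold change 0.86), with the cadherin CadN at 11.5, 14.7 and 18.1 CPM in NBs and 55.7 and 81.1 CPM in GMCs (edgeR adjusted p = 0.00182). In the adhesion list the number higher was 8 without NB replicate 2, NB replicate 3 or GMC replicate 1 and 4 without GMC replicate 2. Removing the length trend there gave 10 higher and 2 lower and a median of 0.51. Dpr, DIP, Beat and Side proteins, which match up neurons by surface contacts, gave 15 higher and 2 lower of 48 (median log2 fold change 1.35). In that family the number higher was 8 without NB replicate 2, 6 without NB replicate 3, 7 without GMC replicate 1 and 3 without GMC replicate 2. Its member DIP-alpha was at 48.1, 81.4 and 58.1 CPM in NBs and 235 and 162 CPM in GMCs (edgeR adjusted p = 3.69e-04).

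RNA-binding proteins gave 18 higher and 3 lower of 54 (median log2 fold change 0.39), 14 and 12 with a median of 0.20 with the length trend removed. The KH domain gene qkr58E-2 was at 373, 374 and 372 CPM in NBs and 101 and 94.0 CPM in GMCs (edgeR adjusted p = 8.56e-07). It was nearly constant within each group and lower in GMCs (log2 fold change -1.94 ± 0.15 SE), with 18.9% of its exon length shared with another gene. The hnRNP gene glo was higher, at 408, 299 and 308 CPM in NBs and 811 and 778 CPM in GMCs (edgeR adjusted p = 1.54e-04). The splicing factor Caper was higher as well, at 213, 165 and 157 CPM in NBs and 369 and 333 CPM in GMCs (edgeR adjusted p = 3.81e-04). Here the number higher was 10 without GMC replicate 1 and 11 without GMC replicate 2, while the number lower was 1 without GMC replicate 2.

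**Figure D3:**
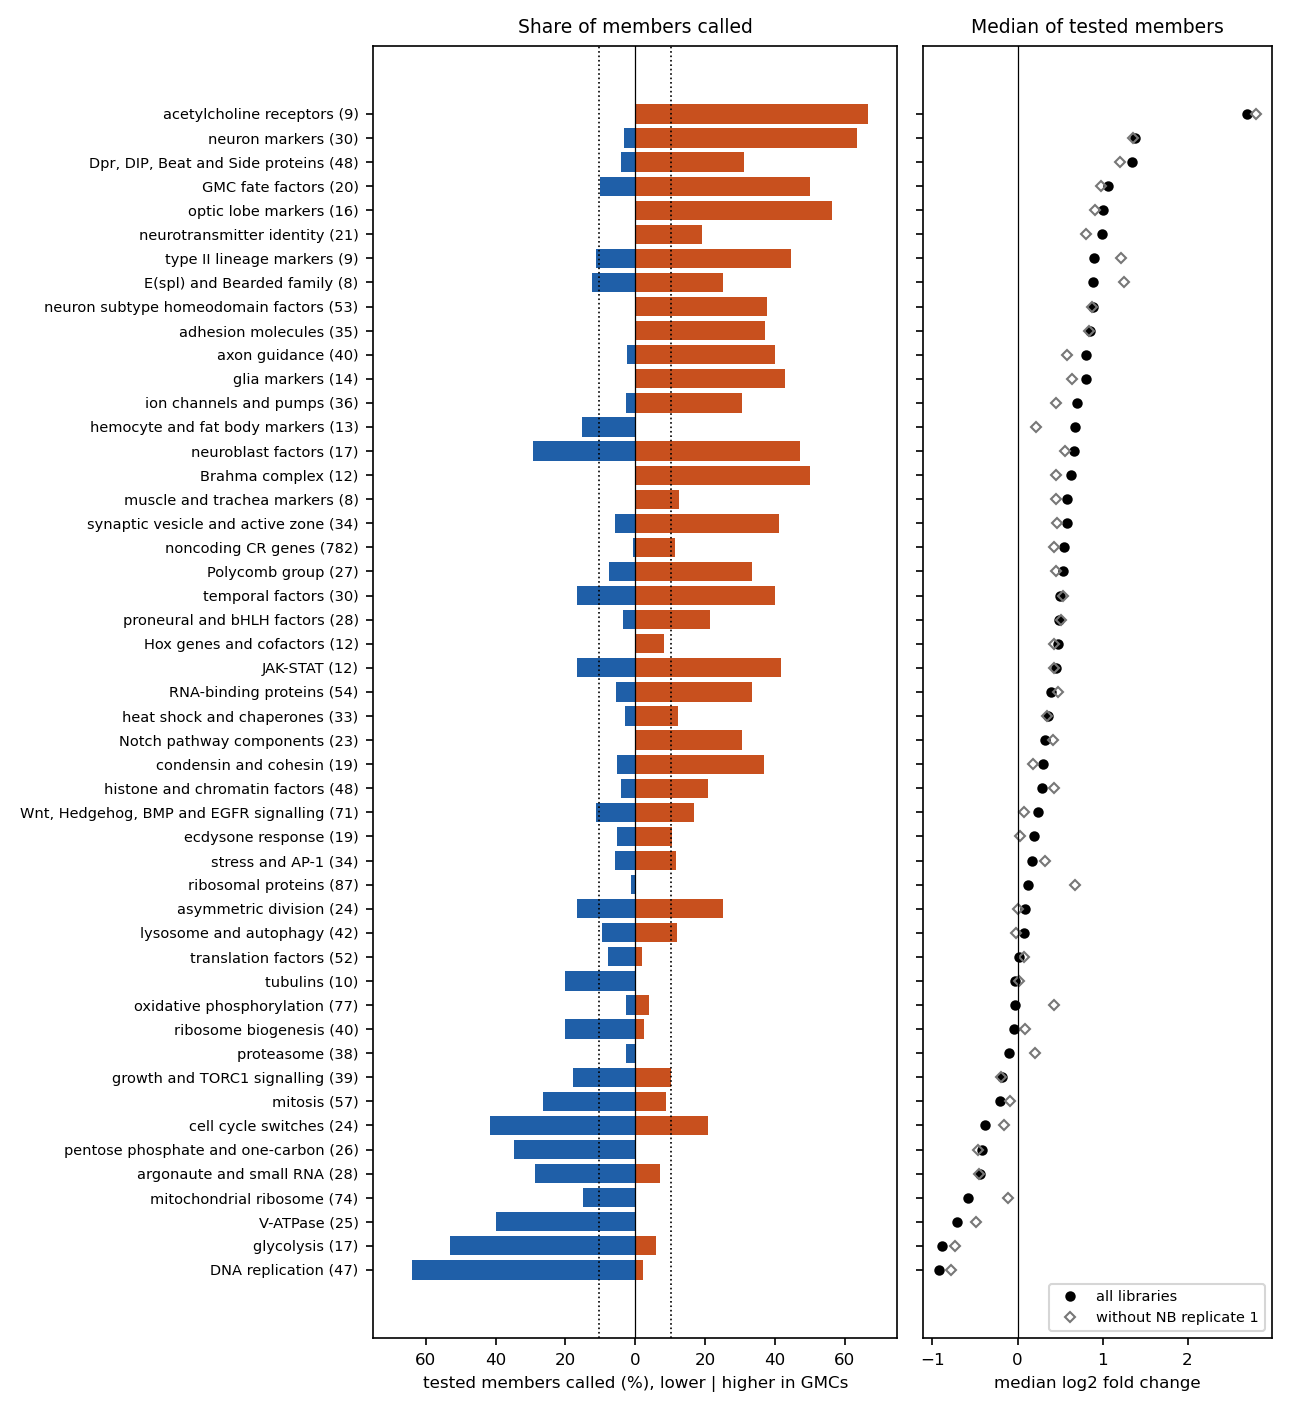
For each gene list with at least 8 tested members (number in brackets), the left panel shows the percentage of members called higher (orange) and lower (blue) in GMCs at 3 h by edgeR, with dotted lines at the 10.2% and 10.5% of all genes, and the right panel the median log2 fold change with all libraries (filled) and without NB replicate 1 (open). Lists are sorted by median, from acetylcholine receptors (2.70) to DNA replication (-0.93), and the open and filled marks of ribosomal proteins and oxidative phosphorylation lie apart.

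Cell cycle genes that were lower in GMCs included drivers of S phase and of mitosis. Of 24 cell cycle switches 10 were lower and 5 higher (median log2 fold change -0.39), and the number higher was 2 without NB replicate 2, 3 without NB replicate 3 and 1 without GMC replicate 1 or GMC replicate 2. Their median was -0.15 without NB replicate 1, and with CR43283 left out of the scaling the calls were 1 higher and 11 lower. The phosphatase stg (FBgn0003525, 3R 29251826 to 29255800), the Cdc25 that triggers mitosis, was at 533, 333.8 and 452 CPM in NBs and 78.5 and 77.1 CPM in GMCs (edgeR adjusted p = 2.45e-05). The mitotic cyclin CycB3 (FBgn0015625, 3R 24867934 to 24870816) was at 536, 538 and 688 CPM in NBs and 111 and 109.7 CPM in GMCs (edgeR adjusted p = 8.09e-07). For both the GMC libraries almost coincided, far below the NBs. The cyclin CycE, which drives entry into S phase, was at 485, 476 and 596 CPM in NBs and 122 and 127 CPM in GMCs (edgeR adjusted p = 1.86e-04). The F-box protein ago, which targets Cyclin E for degradation, was at 255, 282 and 302 CPM in NBs and 96.6 and 117 CPM in GMCs (edgeR adjusted p = 8.12e-05). Both were thus lower, as was fzy, an activator of the anaphase-promoting complex, at 367, 296 and 287 CPM in NBs and 96.4 and 112 CPM in GMCs (edgeR adjusted p = 4.55e-05). The transcription factor E2f1, an activator of S phase genes, was at 362, 399.6 and 497 CPM in NBs and 235 and 263 CPM in GMCs (edgeR adjusted p = 0.0991) and not called. The other Cdc25, twe, was among the higher members besides dap, at 49.0, 35.8 and 37.0 CPM in NBs and 70.6 and 54.6 CPM in GMCs (edgeR adjusted p = 0.0479). Its call was lost under 9 of 13 alternatives, including each left-out library of 3 h other than NB replicate 1 (edgeR adjusted p from 0.0760 to 0.401).

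DNA replication genes were mostly lower in GMCs, with 30 lower and 1 higher of 47 tested and a median log2 fold change of -0.93. In this list the number lower was 15 without GMC replicate 1 and 19 without GMC replicate 2. The licensing factor dup was at 538, 456 and 534 CPM in NBs and 129 and 161 CPM in GMCs (edgeR adjusted p = 3.18e-06). The helicase subunit Mcm6 was at 556, 442 and 403 CPM in NBs and 113 and 127 CPM in GMCs (edgeR adjusted p = 5.94e-06). The origin recognition subunit Orc2 was at 109.5, 79.2 and 81.9 CPM in NBs and 12.4 and 24.0 CPM in GMCs (edgeR adjusted p = 8.18e-05). In all 3 the highest GMC value was far below the lowest NB value. The helicase subunit Mcm2 had a smaller log2 fold change of -1.21, at 569, 725 and 708 CPM in NBs and 282 and 294 CPM in GMCs (edgeR adjusted p = 1.01e-04). The sliding clamp gene PCNA was at 684, 321 and 301 CPM in NBs and 261 and 251 CPM in GMCs (edgeR adjusted p = 0.0802) and not called, with NB replicate 1 far above the other NBs.

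Mitosis genes gave 15 lower and 5 higher of 57 (median log2 fold change -0.20), and the number higher was 3 without NB replicate 2 and 1 without GMC replicate 1 or GMC replicate 2, while the number lower was 7 without GMC replicate 1 and 8 without GMC replicate 2. The median of mitosis genes was -0.09 without NB replicate 1 and -0.31 with CR43283 left out of the scaling. With all libraries 8.77% of them were higher and 26.3% lower, against 10.2% and 10.5% of all genes. The microtubule polymerase msps was at 499, 708 and 762 CPM in NBs and 305 and 321 CPM in GMCs (edgeR adjusted p = 0.00171). The checkpoint kinase BubR1 was at 363, 463 and 452 CPM in NBs and 240.0 and 251 CPM in GMCs (edgeR adjusted p = 0.00217). Both were lower in GMCs, whereas the kinesin cmet was at 634, 603 and 576 CPM in NBs and 622 and 634 CPM in GMCs (edgeR adjusted p = 0.926) and not called. Condensin and cohesin genes, which shape and hold chromosomes, gave 7 higher and 1 lower of 19 (median log2 fold change 0.30), and the number higher was 3 without GMC replicate 1 or GMC replicate 2. Their median was 0.04 without GMC replicate 2, 0.18 without NB replicate 1 and 0.10 with the length trend removed, where 4 higher and 2 lower were called. The cohesin subunit SMC1 was at 144, 154 and 176 CPM in NBs and 367 and 395 CPM in GMCs (edgeR adjusted p = 0.00128). The condensin subunit Cap-G was at 74.5, 82.5 and 96.9 CPM in NBs and 207 and 282 CPM in GMCs (edgeR adjusted p = 0.00174). Both were higher, and the 1 lower member was the cohesin acetyltransferase eco, which acts in S phase, at 94.1, 112 and 116 CPM in NBs and 56.7 and 50.5 CPM in GMCs (edgeR adjusted p = 0.00210).

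Chromatin regulators were higher in GMCs more often than lower. Polycomb group and related genes gave 9 higher and 2 lower of 27 (median log2 fold change 0.54). The paralogue ph-p (FBgn0004861, X 2126210 to 2138371), a subunit of Polycomb repressive complex 1, was at 113, 126 and 114 CPM in NBs and 602 and 581 CPM in GMCs (edgeR adjusted p = 9.42e-08). Its neighbour ph-d (FBgn0004860, X 2115727 to 2123286) was at 88.6, 116 and 104 CPM in NBs and 400.2 and 339 CPM in GMCs (edgeR adjusted p = 1.28e-05). Both were higher, but these copies are similar in sequence, so the split of reads between them is uncertain. Another subunit of the complex, Psc, was at 39.3, 71.8 and 67.2 CPM in NBs and 146 and 125 CPM in GMCs (edgeR adjusted p = 0.00383). The associated protein Scm was at 107, 101 and 102 CPM in NBs and 239.8 and 236 CPM in GMCs (edgeR adjusted p = 3.50e-04). The Brahma remodelling complex, which moves nucleosomes, gave 6 higher and 0 lower of 12 (median log2 fold change 0.63, or 0.35 with the length trend removed), and the number higher was 3 without GMC replicate 1 and 2 without GMC replicate 2. Its ATPase brm was at 279, 356 and 422 CPM in NBs and 667 and 781 CPM in GMCs (edgeR adjusted p = 0.00274). Other chromatin factors gave 10 higher and 2 lower of 48, and the number higher was 6 without GMC replicate 2. With CR43283 left out of the scaling they gave 10 higher and 4 lower. The insulator protein Cp190 was at 510.2, 582 and 594 CPM in NBs and 1218 and 1292 CPM in GMCs (edgeR adjusted p = 5.18e-04). Dref, a transcription factor of replication genes, was at 225, 196 and 215 CPM in NBs and 611 and 758 CPM in GMCs (edgeR adjusted p = 5.91e-05). Both were higher in each GMC library than in any NB library.

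Genes of glucose use and of nucleotide synthesis that passed the test were mostly lower in GMCs. Glycolysis gave 9 lower and 1 higher of 17 genes (median log2 fold change -0.89), and the number lower was 5 without GMC replicate 1. The aldolase gene Ald (FBgn0000064, 3R 26254069 to 26261591) was at 275, 235 and 307 CPM in NBs and 40.5 and 52.4 CPM in GMCs. The groups were far apart (log2 fold change -2.55 ± 0.23 SE, edgeR adjusted p = 3.18e-06). The hexokinase Hex-A was at 206, 134 and 242 CPM in NBs and 37.1 and 58.4 CPM in GMCs (edgeR adjusted p = 7.67e-04). The dehydrogenase Gapdh2 was at 317, 293 and 327 CPM in NBs and 122 and 121 CPM in GMCs (edgeR adjusted p = 4.14e-05). Both were lower with no overlap. The lactate dehydrogenase ImpL3 spread widely within both groups, at 255, 61.0 and 162 CPM in NBs and 31.6 and 101 CPM in GMCs (edgeR adjusted p = 0.119), and was not called. Pentose phosphate and one-carbon genes gave 9 lower and 0 higher of 26 (median log2 fold change -0.42). The purine synthesis gene ade5 was at 109, 87.6 and 80.8 CPM in NBs and 22.0 and 31.1 CPM in GMCs (edgeR adjusted p = 5.12e-05). The IMP dehydrogenase ras was at 174, 209 and 233 CPM in NBs and 98.5 and 111 CPM in GMCs (edgeR adjusted p = 9.19e-04). The S-adenosylmethionine synthetase Sam-S was at 1447, 1337 and 1640.3 CPM in NBs and 615 and 703 CPM in GMCs (edgeR adjusted p = 1.01e-04). All 3 were lower in GMCs.

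Subunits of the vacuolar proton pump, which acidifies lysosomes and other organelles, were lower wherever they passed the test. Of 34 subunits in the files 25 were tested, with 10 lower and 0 higher (median log2 fold change -0.72), and the number lower was 6 without GMC replicate 2. The catalytic subunit Vha68-2 was at 207, 182 and 188 CPM in NBs and 63.8 and 58.9 CPM in GMCs (edgeR adjusted p = 4.24e-06). The subunit VhaSFD was at 179, 148 and 131 CPM in NBs and 48.0 and 44.0 CPM in GMCs (edgeR adjusted p = 2.34e-05). Both were lower with little spread in GMCs. The proteolipid subunit Vha16-1 was at 1376, 929 and 1066 CPM in NBs and 806 and 868 CPM in GMCs (edgeR adjusted p = 0.208) and not called. Mitf, which activates these genes in flies, was at 56.7, 142 and 122 CPM in NBs and 128 and 109.8 CPM in GMCs (edgeR adjusted p = 0.825) and not called either. Lysosome and autophagy genes gave 5 higher and 4 lower of 42, and the number higher was 3 without NB replicate 2 or NB replicate 3, 1 without GMC replicate 1 and 2 without GMC replicate 2, while the number lower was 0 without GMC replicate 1 and 1 without GMC replicate 2. They gave 3 higher and 5 lower with CR43283 left out of the scaling. With all libraries 11.9% were higher and 9.52% lower, near the 10.2% and 10.5% of all genes.

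Growth signalling genes gave 4 higher and 7 lower of 39 (median log2 fold change -0.18), and the number higher was 2 without GMC replicate 1, while the number lower was 4 without GMC replicate 1 and 3 without GMC replicate 2. The sign of the median turned without GMC replicate 1, to 0.02. The median was -0.29 with CR43283 left out of the scaling and -0.43 with the length trend removed, where 3 higher and 12 lower were called. In this list 10.3% were higher and 17.9% lower with all libraries, against 10.2% and 10.5% of all genes. The transcription factor REPTOR (FBgn0039209, 3R 24557368 to 24582864), which TORC1 holds in the cytoplasm, was at 242, 211 and 249.7 CPM in NBs and 37.5 and 50.2 CPM in GMCs (edgeR adjusted p = 2.07e-05). The GTPase RagC-D, which brings TORC1 to the lysosome, was at 70.5, 56.0 and 55.6 CPM in NBs and 19.4 and 26.1 CPM in GMCs (edgeR adjusted p = 3.41e-04). Both were lower in GMCs with no overlap. The growth regulator Myc was at 333, 437 and 494 CPM in NBs and 462 and 427 CPM in GMCs (edgeR adjusted p = 0.902) and not called, with 61.2% of its exon length shared with another gene.

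Differences of mitochondrial and ribosomal genes moved with NB replicate 1, the library that stood apart. Mitochondrial ribosome genes gave 11 lower and 0 higher of 74, and the number lower was 18 without NB replicate 2, 4 without GMC replicate 1 and 5 without GMC replicate 2. Their median log2 fold change was -0.59 with all libraries and -0.11 without NB replicate 1. With all libraries 14.9% of them were lower, against 10.5% of all genes. The subunit gene mRpS29 was at 61.2, 45.3 and 45.7 CPM in NBs and 18.4 and 18.4 CPM in GMCs (edgeR adjusted p = 1.78e-04). Oxidative phosphorylation genes gave 3 higher and 2 lower of 77, and the number higher was 13 without NB replicate 1, 1 without NB replicate 2, NB replicate 3 or GMC replicate 2 and 0 without GMC replicate 1. Their median log2 fold change moved from -0.03 to 0.43 without NB replicate 1, and to -0.22 or -0.20 without NB replicate 2 or 3. The ATP synthase subunit gene ATPsynC was at 2406, 1219 and 1249.5 CPM in NBs and 2219.9 and 1848 CPM in GMCs (edgeR adjusted p = 0.436), where NB replicate 1 lay above both GMC libraries and the other NBs below. Cytosolic ribosomal protein genes gave 0 higher and 1 lower of 87, but the number higher was 36 without NB replicate 1. Their median log2 fold change was 0.12 with all libraries, 0.67 without NB replicate 1 and -0.07 or -0.11 without NB replicate 2 or 3. Their summed level ran from 32413 to 71443 CPM in NBs and from 45370.4 to 52839 CPM in GMCs, so the GMC values lay inside the NB range. Ribosome biogenesis gave 1 higher and 8 lower of 40, and the number higher was 4 without NB replicate 1, while the number lower was 1 without GMC replicate 1 and 4 without GMC replicate 2. The nucleolar GTPase gene Ns4 was at 46.5, 50.8 and 48.0 CPM in NBs and 23.3 and 23.9 CPM in GMCs (edgeR adjusted p = 0.00236). Translation factors gave 1 higher and 4 lower of 52, and the number higher was 4 without NB replicate 1, while the number lower was 2 without NB replicate 1 and 1 without GMC replicate 1 or GMC replicate 2, with 1 higher and 8 lower when CR43283 was left out of the scaling. Of the translation factors 1.92% were higher and 7.69% lower with all libraries, against 10.2% and 10.5% of all genes. Proteasome genes gave 0 higher and 1 lower of 38. Tubulins gave 0 higher and 2 lower of 10.

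**Figure D4:**
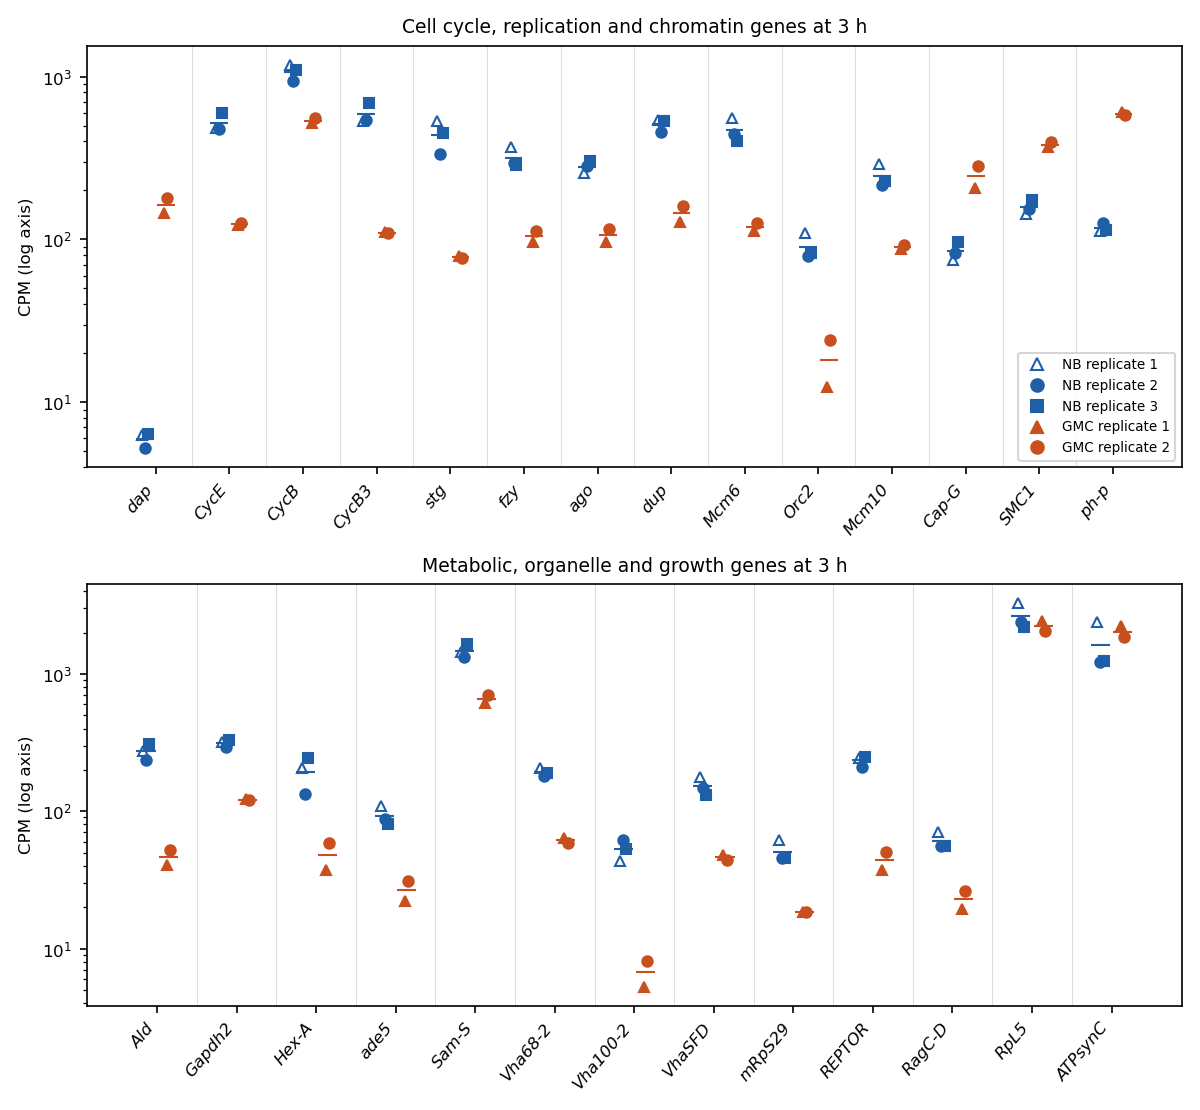
Levels in CPM on a log axis of cell cycle, replication and chromatin genes (top) and of metabolic, organelle and growth genes (bottom) in the 3 NB libraries (blue) and the 2 GMC libraries (orange) of 3 h, with a bar at each group mean. The GMC points of stg, CycB3, Mcm6, Ald and Vha100-2 lie well below the NB points, those of SMC1 and ph-p above them, and for ATPsynC the open triangle of NB replicate 1 lies above the GMC points while the other NB points lie below.

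Signalling pathways other than Notch showed differences at single components. JAK-STAT genes gave 5 higher and 2 lower of 12, and the number higher was 2 without NB replicate 2 or GMC replicate 1 and 1 without GMC replicate 2. Removing the length trend left 1 higher and 2 lower in this pathway. The transcription factor Stat92E was lower, at 246, 323 and 292 CPM in NBs and 99.4 and 97.5 CPM in GMCs (edgeR adjusted p = 3.68e-05). The other lower gene was Socs44A of the SOCS family (log2 fold change -1.36, edgeR adjusted p = 0.00102). The combined Wnt, Hedgehog, BMP and EGFR list gave 12 higher and 8 lower of 71, and the number higher was 6 without GMC replicate 2, while the number lower was 5 without NB replicate 2 or NB replicate 3, 3 without GMC replicate 1 and 4 without GMC replicate 2. The BMP effector shn was at 32.5, 31.0 and 44.2 CPM in NBs and 5.84 and 8.76 CPM in GMCs (edgeR adjusted p = 3.69e-04). The type II receptor put was at 165, 159.9 and 176 CPM in NBs and 84.5 and 81.0 CPM in GMCs (edgeR adjusted p = 3.05e-04). The activin pathway Smad, Smox, was at 284, 317 and 341 CPM in NBs and 166 and 155 CPM in GMCs (edgeR adjusted p = 7.68e-04). These 3 were lower, whereas the shared Smad, Med, was higher, at 29.2, 28.7 and 33.3 CPM in NBs and 71.3 and 72.7 CPM in GMCs (edgeR adjusted p = 2.87e-04). The Wingless coreceptor arr was at 23.9, 35.5 and 36.0 CPM in NBs and 84.3 and 87.6 CPM in GMCs (edgeR adjusted p = 7.73e-05). The EGFR ligand spi was at 134, 159 and 183 CPM in NBs and 303 and 292 CPM in GMCs (edgeR adjusted p = 7.69e-04). In both cases the GMC values were above all NB values. Of the combined list 16.9% were higher and 11.3% lower, against 10.2% and 10.5% of all genes.

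Stress genes gave 4 higher and 2 lower of 34, and the number higher was 2 without GMC replicate 2, while the number lower was 5 without NB replicate 2. With CR43283 left out of the scaling the stress list gave 4 higher and 5 lower. Its shares with all libraries were 11.8% higher and 5.88% lower, against 10.2% and 10.5% of all genes. The AP-1 factor Jra was at 8.13, 11.1 and 8.83 CPM in NBs and 28.2 and 28.0 CPM in GMCs (edgeR adjusted p = 2.93e-04). The bZIP factor Xrp1 was at 674, 486 and 656 CPM in NBs and 1362 and 1484 CPM in GMCs (edgeR adjusted p = 8.42e-04). For each the GMC values exceeded every NB value. Chaperone genes gave 4 higher (12.1%) and 1 lower (3.03%) of 33, with the share higher again near that of all genes. With CR43283 left out of the scaling they gave 3 higher and 2 lower. Hsp70Bb was at 48.4, 14.4 and 18.8 CPM in NBs and 107 and 119 CPM in GMCs (edgeR adjusted p = 0.00248), and its reads may be shared with near-identical Hsp70 copies.

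Genes of small RNA pathways were more often lower than higher, with 8 lower and 2 higher of 28 (median log2 fold change -0.44), and the number lower was 5 without GMC replicate 1. The lower members included piRNA genes, best known from the germline. The Tudor domain gene vret was at 65.0, 59.9 and 57.3 CPM in NBs and 12.4 and 13.6 CPM in GMCs (edgeR adjusted p = 3.18e-06). The piRNA gene Gasz was at 70.6, 53.7 and 55.2 CPM in NBs and 19.8 and 10.4 CPM in GMCs (edgeR adjusted p = 8.79e-05). Both were lower with no overlap. The helicase armi was at 174, 195 and 137 CPM in NBs and 42.5 and 58.1 CPM in GMCs (edgeR adjusted p = 0.00143), but 99.6% of its exon length overlaps another gene. Dcr-2, which the flies also carry as a transgene, was at 2865, 4271 and 5902 CPM in NBs and 18191 and 22999 CPM in GMCs (edgeR adjusted p = 1.18e-04), and native and transgenic reads cannot be told apart. The eye colour gene w, a marker used on transgenes, was at 77.6, 162 and 154 CPM in NBs and 556 and 473 CPM in GMCs (edgeR adjusted p = 1.01e-04). Both were higher in GMCs with no overlap.

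Genes named as non-coding RNAs were called higher at a share near that of all genes and seldom called lower. Of 2369 in the files 782 were tested, of which 89 (11.4%) were higher, against 10.2% of all genes, and 6 (0.767%) lower, against 10.5%. The median log2 fold change was 0.55, and the number higher was 59 without NB replicate 1 or NB replicate 3, 32 without GMC replicate 1 and 43 without GMC replicate 2, while the number lower was 2 without GMC replicate 1. CR43283 was at 62869, 39798 and 34282 CPM in NBs and 356961 and 255244 CPM in GMCs (edgeR adjusted p = 1.52e-04). CR45919 was at 15.1, 14.3 and 15.9 CPM in NBs and 123 and 139 CPM in GMCs (edgeR adjusted p = 4.24e-06). Both were higher in each GMC library.

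Markers of other cells were measured over their whole lists. Glia markers gave 6 higher and 0 lower of 14, and the number higher was 1 without NB replicate 1 or NB replicate 3, 2 without GMC replicate 1 and 0 without GMC replicate 2, with 3 higher and 0 lower when the length trend was removed. For the defining gene repo the log2 difference was 0.14 (edgeR adjusted p = 0.888). The summed level of the glia markers was 729 to 834 CPM in NBs and 1069.7 to 1071 CPM in GMCs. Optic lobe markers, several of which are also temporal or homeodomain factors, gave 9 higher and 0 lower of 16, and the number higher was 4 without GMC replicate 2. Their summed level was 571 to 685 CPM in NBs and 1065 to 1097 CPM in GMCs. Type II lineage markers gave 4 higher and 1 lower of 9, and the number higher was 2 without GMC replicate 1. Among them ham, a mark of intermediate progenitors, was at 0.339, 0.390 and 0.287 CPM in NBs and 4.89 and 5.81 CPM in GMCs (edgeR adjusted p = 2.64e-04). Their summed level was 74.2 to 94.7 CPM in NBs and 155 to 161 CPM in GMCs. Hemocyte and fat body markers gave 0 higher and 2 lower of 13 although their median log2 fold change was 0.67, or 0.22 without NB replicate 1, 0.28 without NB replicate 2, 0.04 without GMC replicate 2 and 0.40 with the length trend removed. Their summed level was 170.4 to 262 CPM in NBs and 169 to 176 CPM in GMCs, with the scavenger receptor crq at 129, 109 and 116 CPM in NBs and 44.2 and 47.1 CPM in GMCs (edgeR adjusted p = 4.00e-05) and the hemocyte genes He and NimC1 removed by the filter. Muscle and trachea markers gave 1 higher (12.5%) and 0 lower of 8, against 10.2% and 10.5% of all genes. The part of such cells in the differences above was not tested.

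The difference between GMCs and NBs at 3 h was set against those of 1.5 and 5 h, each age with its own flow cell, so that age and sequencing run cannot be told apart. For the change of the difference from 1.5 h to 3 h edgeR called 0 of 10913 genes (0.0%), with 683 (6.26%) at an unadjusted p under 0.05, while DESeq2 called 32. Among these 32 were Mcm6, wor, ase, dap, dup, lola and opa. The level of ase in GMCs was 370.0 ± 29.7 CPM at 1.5 h (SD, n = 3), 814 ± 57.7 CPM at 3 h (SD, n = 2) and 1427 ± 233 CPM at 5 h (SD, n = 2). In NBs it was 331 ± 33.7, 314 ± 55.2 and 435 ± 73.7 CPM at the same ages (SD, n = 3 each).

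From 3 h to 5 h the difference changed for 442 genes (4.05%), rising for 185 (1.7%) and falling for 257 (2.35%). Of 34 synapse genes it fell for 8 and rose for 0, and of 30 neuron markers it fell for 7 and rose for 2. For Syt4 the log2 change was -5.996 (edgeR adjusted p = 0.0135). At 5 h the level of Syt4 was 55.1 ± 64.1 CPM in NBs (SD, n = 3) and 20.5 ± 14.6 CPM in GMCs (SD, n = 2), against 1.996 ± 1.17 and 48.7 ± 26.6 CPM at 3 h, and the NBs of 5 h spread widely. For Rim the log2 change was -5.85 (edgeR adjusted p = 0.0202) and for nrv3 -4.52 (edgeR adjusted p = 0.0127). Their highest NB levels at 5 h, 24.5 and 20.9 CPM, were in replicate 3. Of 17 neuroblast factors, a list that includes cas, the difference rose for 5 and fell for 1. For wor it rose by 1.16 (edgeR adjusted p = 0.0255), with GMCs of 5 h at 829.8 ± 27.6 CPM (SD, n = 2). For cas it rose by 2.53 (edgeR adjusted p = 0.0274), where NBs of 5 h held 19.1 ± 3.43 CPM (SD, n = 3) and GMCs of 5 h 3162 ± 97.2 CPM (SD, n = 2). The E(spl)mgamma-HLH difference rose by 2.26 (edgeR adjusted p = 0.0219), its level in GMCs going from 20.4 ± 0.993 to 94.4 ± 24.1 CPM (SD, n = 2 each). The number of genes called was 82 and 105 without GMC replicate 1 or 2 of 3 h, 192 without NB replicate 3 of 3 h, 38 and 181 without GMC replicate 1 or 2 of 5 h and 724 without NB replicate 2 of 5 h. Of the 31 genes named here whose difference changed, 5 still passed without GMC replicate 1 of 5 h and 8 without GMC replicate 2 of 3 h, and all 31 kept their direction.

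**Figure D5:**
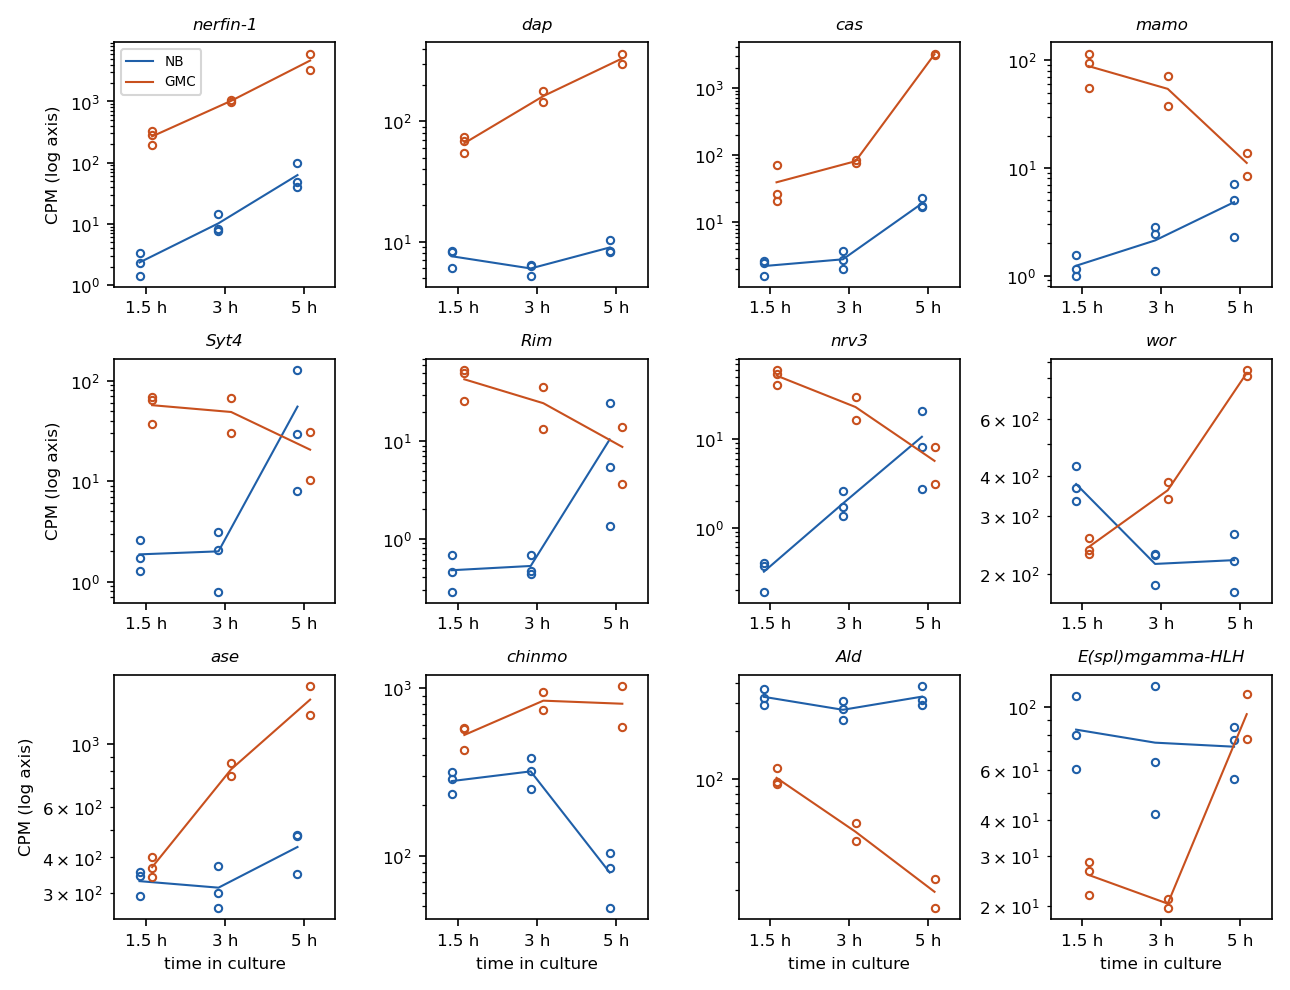
Levels in CPM on a log axis of 12 genes in NBs (blue) and GMCs (orange) after 1.5, 3 and 5 h in culture, with a circle for each library and lines through the group means. At 3 h the circles of the groups do not overlap for any of the 12 genes, while at 5 h those of Syt4, Rim, nrv3 and E(spl)mgamma-HLH do, and the GMC circles of cas and nerfin-1 lie above those of 3 h.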

How the data were processed

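Polyadenylated RNA of sorted NBs and GMCs was sequenced in 16 libraries, and the deposited files hold raw counts of reads per gene. The submitters' processing notes name HTSeq 0.6.1, TopHat2 2.1.1, DESeq2 1.12.4, BWA 0.7.12 and bedtools 2.26.0 without their roles. Details not given in the sources used here include the genome build, the annotation, the strand setting and any use of the molecular barcodes. Lines that summarise unassigned reads entered neither library sizes nor tests, and reads in no gene were 11.8% to 17.7% and ambiguous reads 1.42% to 2.03% of the reads of the 3 h libraries. Counts per library at 3 h lay between 6899670 and 15114163, and with 2 GMC libraries precision is set mainly by their number.

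Counts were tested in R 4.3.3 with edgeR 4.0.16 (quasi-likelihood test, trimmed-mean scaling, two-sided, Benjamini-Hochberg adjustment over 10913 genes at 0.05) on 16 libraries in 6 groups. The filter on low counts (filterByExpr, minimum count 10, minimum total 15) removed 5451 of 16364 genes. It kept a gene with enough counts in as many libraries as the smallest group holds. Genes near 0 in NBs of 3 h, such as Syn and robo3, were thus tested only because GMCs or another age held counts. List counts and medians with such genes lean towards the group with counts. CPM are on the scaled library size. DESeq2 1.42.0 was an alternative. On simulated counts of 10557 genes with 200 changed, the test of GMCs against NBs at 3 h recovered 33% of 2-fold and 92% of 4-fold changes, with 3.846% of calls false. The changed genes were taken from those with higher counts, and all other genes had the same mean in every group. No library was made to stand apart as NB replicate 1 did, and 20.7% of genes were called in the real data. These rates therefore need not hold for the real libraries.

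The authors' deposited DESeq2 table of the same comparison gives a mean signal per gene (normalised mean count), a log2 fold change, a test statistic, which is a score, and p-values. It supplied the gene symbols. Of its 10163 genes with an adjusted p-value, the authors' deposited table has 1219 higher and 1626 lower in GMCs under 0.05, and all 2255 edgeR calls have the same sign in it.

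Coordinates, lengths and exon overlaps come from the Ensembl 115 annotation of release 6, which holds 16208 of the 16364 genes. Genes were named by rule: the 15 largest called changes each way with at least 20 CPM and no overlap, from each list the 6 called members with the smallest adjusted p and the 2 uncalled members with the highest mean CPM, and the leading changes between ages. Genes outside it are marked in the text, and not all genes it takes are printed. The comparison and the gene lists, which overlap, were chosen with earlier results of these data known.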

Additional observations from a re-analysis of the deposited data

Results flagged for a closer look

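Of the genes described above, 31 had a difference between GMCs and NBs at 5 h that departed from that at 3 h in edgeR's interaction test (adjusted p under 0.05). Values are the difference at 5 h minus that at 3 h, on the log2 scale, and the cause was not tested. The ages lie on separate flow cells, so age and flow cell cannot be told apart.

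The difference fell for genes of neurons and synapses that were higher in GMCs at 3 h: robo3 by -7.40, Syn by -6.19, Syt4 by -5.996, Rim by -5.85, nAChRalpha1 by -4.98, Sema-2b by -4.75, nrv3 by -4.52, dysc by -4.04, brp by -3.70, CanA-14F by -3.43 and Sh by -2.74. For each of these genes the highest NB level of 5 h was that of replicate 3. Replicate 1 was close to it for brp and Sh. In the NB libraries of 5 h robo3 was at 1.77, 2.61 and 19.7 CPM and Rim at 1.35, 5.43 and 24.5 CPM. Mean levels in GMCs went from 7.18 CPM at 3 h to 2.86 CPM at 5 h for robo3 and from 24.6 to 8.75 CPM for Rim. Without NB replicate 3 of 5 h, 26 of the 31 genes still passed. The difference fell likewise for regulators: bru3 by -3.92, mamo by -3.50, Rbp6 by -3.41, jim by -3.25, pros by -1.70 and twe by -2.24. The gene CG34362 changed by -5.59, Dcr-2 by -3.09 and the eye colour gene w by -3.21. Native and transgenic reads of Dcr-2 are counted together. Mean levels of Dcr-2 were 4346 CPM in NBs and 20595 CPM in GMCs at 3 h, and 296 and 165 CPM at 5 h. Those of w were 131 and 515 CPM at 3 h, and 96.4 and 40.9 CPM at 5 h. Whether the cells of 5 h carried the same transgenes was not tested. The difference also fell for genes at or below the NB level at 3 h, Ald by -1.54, mira by -1.42 and dup by -0.94.

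The difference rose for cas by 2.53, E(spl)mgamma-HLH by 2.26, E(spl)mbeta-HLH by 2.21, chinmo by 1.94, apt by 1.92, elav by 1.62, dock by 1.40 and wor by 1.16. Of the 31 genes 22 passed with the replicate number as a block, 18 without GMC replicate 1 of 3 h, 8 without GMC replicate 2 of 3 h and 5 without GMC replicate 1 of 5 h, and all 31 kept their direction in each of these fits.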

How the results depend on the processing

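The 2255 calls at 3 h became 1651 to 2903 under the other scalings, tests, filters, blocks and sets of libraries, and 1095 to 2183 with 1 library left out, where the lowest counts came without a GMC library. For the change from 1.5 h to 3 h edgeR called 0 genes with all libraries and 0 with any library left out, and DESeq2 32. For the change from 3 h to 5 h, 442 genes became 742 with CR43283 left out of the scaling, 806 with the gene-length trend removed, 1184 with DESeq2 and 38 to 724 with 1 library left out. Of 141 called genes named above, 129 kept their call at 3 h under all 13 alternatives, and all 141 kept their direction. The naming rule takes large changes and small p-values, so the high share kept among named genes was favoured in advance. Of all 2255 calls, 1533 were kept in the fit of the 3 h libraries alone and 1793 without NB replicate 1. The cause of the shifts in the number of calls was not tested, beyond that leaving out a library leaves fewer samples.

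Deviations of same-numbered libraries from their group means had correlations of -0.0535 and -0.164 for the 2 pairs at 3 h. The deviations of 2 GMC libraries mirror each other, so these values cannot decide whether the numbers pair the samples. With a replicate block, 1789 genes were called at 3 h, 1626 of them among the 2255. The block gave 1 gene for the change from 1.5 h to 3 h and 148 for that from 3 h to 5 h.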
